A study of Mus musculus with 6 samples.

Results

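The SLC25 mitochondrial carriers outside the citrate, malate, aspartate, ornithine and carnitine group were followed in liver RNA. Members were the protein-coding genes of the deposited gene table named Slc25a followed by a number, except Slc25a1, Slc25a10, Slc25a11, Slc25a12, Slc25a13, Slc25a15 and Slc25a20. They numbered 40 of 47 carriers so named, and of 55414 annotated genes in all. The rule used names only and no measured value, but members, roles and lists were chosen with earlier results of these data known.

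Most SLC25 proteins are small inner-membrane carriers that let nucleotides, phosphate, amino acids, cofactors and metal ions cross between cytosol and mitochondrial matrix. They are made in the cytosol, pass the outer membrane through the TOM complex and are inserted by the TIM22 machinery. In liver they supply oxidative phosphorylation, amino acid breakdown, ketogenesis and heme synthesis, all of which are active during fasting.

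Liver RNA came from 12-week-old male mice fasted for 16 hours, in 3 groups of 2 libraries, each library a pool of RNA from 2 mice. The first group carried the hepatocyte-specific Gapdh deletion (labelled GapAlb KO) and drank water with 5% serine. The second carried the same deletion and drank plain water. The control group carried the floxed genotype (labelled Gapfl) and drank plain water. The deletion is confined by design to hepatocytes, so the other liver cells in the tissue keep the gene, and the Cre driver is not given in the sources used here. A control group on serine was not analysed here, and p-values measure the spread between pools, not between single mice. Gapdh stood at 20 and 23.5 FPKM (fragments scaled by gene length and library size) in knockouts on serine and at 23.8 and 17.0 FPKM in knockouts on water, against 1091 and 1391 FPKM in controls.

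From the spacing of low FPKM values, each library held an estimated 17.3 M to 19.2 M fragments. The 8 hepatocyte markers summed to between 53530 and 65840 FPKM in every library. Alb, at a mean of 37620 FPKM, made up most of that sum, which says little of the other markers. For knockouts on water against controls, Cps1 was 2.30-fold and Tat 1.91-fold in mean FPKM, above both controls. Hnf4a (0.745-fold), Ttr (0.815-fold) and Serpina1c (0.899-fold) lay below both, and Alb, Apoa1 and Asgr1 overlapped. Muscle markers summed to at most 0.35 FPKM, with Ckm, Myh4 and Tnnt3 listed at 0, and of the adipose list Adipoq, Lep and Ucp1 were listed at 0. The adipose list's sum of 140 and 184 FPKM in knockouts on serine and 198 and 187 FPKM in knockouts on water, against 68.8 and 87.5 FPKM in controls, came from Cidec in the main, the only gene of that list with a mean of 1 FPKM or more. The Kupffer cell list summed to 84.97 and 90.44 FPKM in knockouts on serine and 82.7 and 70.3 FPKM in knockouts on water, against 79.0 and 62.4 FPKM in controls. The stellate list summed to 92.2 and 78.3 FPKM in knockouts on serine and 62.4 and 75.0 FPKM in knockouts on water, against 67.2 and 50.8 FPKM in controls. Both lists were thus highest in the serine libraries, but their members did not all follow. Within the stellate list Lrat was 2.24-fold and Reln 1.65-fold higher in mean FPKM for serine against water. Col3a1, Pdgfrb and Des also lay above without overlap. Dcn, the largest member, was 1.13-fold and overlapped, as did Col1a1. In the Kupffer cell list Adgre1, Cd68 and Csf1r lay above without overlap. Clec4f, Cd5l, Vsig4 and Marco overlapped, with Marco at 0.74-fold. The cholangiocyte list summed to 20.4 and 10.4 FPKM in knockouts on serine and 8.72 and 13.5 FPKM in knockouts on water, against 16.5 and 22.1 FPKM in controls. Its member Sox9 stood at 0.39 and 0.35 FPKM in knockouts on serine and 0.55 and 0.66 FPKM in knockouts on water, against 3 and 2.32 FPKM in controls. The other members did not all follow Sox9. Krt19 averaged 0.49 FPKM on serine and 0.58 FPKM on water, against 0.52 FPKM in controls. In the same order Krt7 averaged 0.245, 0.075 and 0.19 FPKM and Epcam 0.32, 0.41 and 0.715 FPKM. Spp1 averaged 13.95, 9.42 and 15.26 FPKM, and overlapped controls on serine. The endothelial list stayed between 98.2 and 112 FPKM. The part of these other cell types in the carrier values was not tested. A pair of libraries stood apart in the share of mitochondrially encoded RNA, knockout serine replicate 2 at 8.89% and knockout water replicate 1 at 9.70% of all FPKM, with the other 4 libraries between 12.0% and 12.6%. Replicate differences of these 2 knockout groups had a correlation of -0.20 across 11134 genes. Counts of calls are therefore also given without that pair.

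The promoters of the 3 carriers on which most of the following values turn are shown first, as 250 bases before and 50 after the start in the RefSeq table (GRCm38.p6; 29 of the 40 members matched by symbol). Slc25a47 was the most abundant carrier and Slc25a5 the only one to pass a test, and Slc25a3 had the largest difference from controls among carriers over 100 FPKM in any group. Capitals mark matches, on either strand, to 6 motifs chosen with these sequences in view: the NRF1 consensus (its match is spelled out below the sequences), CCGGAAG (ETS factors), TGACGT (CREB), TATAA (the TATA box), AAGGTCA (ERR) and the box with the letters CCAAT. No match overlapped another.
Slc25a47 promoter (chr12:108850879-108851178, plus strand): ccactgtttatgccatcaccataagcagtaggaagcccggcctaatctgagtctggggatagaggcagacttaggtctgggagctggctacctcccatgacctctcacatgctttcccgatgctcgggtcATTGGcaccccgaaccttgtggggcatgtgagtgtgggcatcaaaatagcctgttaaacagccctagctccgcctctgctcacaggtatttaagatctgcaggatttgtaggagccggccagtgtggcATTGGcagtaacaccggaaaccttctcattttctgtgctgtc
Slc25a5 promoter (chrX:36795347-36795646, plus strand): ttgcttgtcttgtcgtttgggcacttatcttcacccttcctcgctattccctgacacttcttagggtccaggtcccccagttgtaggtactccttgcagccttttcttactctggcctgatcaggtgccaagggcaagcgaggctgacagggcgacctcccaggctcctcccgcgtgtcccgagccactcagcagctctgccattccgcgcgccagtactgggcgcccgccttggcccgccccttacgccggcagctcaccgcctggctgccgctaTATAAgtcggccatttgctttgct
Slc25a3 promoter (chr10:91123918-91124217, minus strand): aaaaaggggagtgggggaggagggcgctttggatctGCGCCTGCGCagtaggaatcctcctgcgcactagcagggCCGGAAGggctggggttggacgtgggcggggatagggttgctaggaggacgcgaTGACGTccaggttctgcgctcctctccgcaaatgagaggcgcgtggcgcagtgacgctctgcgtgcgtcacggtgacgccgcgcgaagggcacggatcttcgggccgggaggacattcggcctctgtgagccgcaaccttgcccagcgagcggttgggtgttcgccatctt

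The Slc25a3 window held the NRF1 match GCGCCTGCGC at bases 37 to 46, CCGGAAG at bases 76 to 82 and TGACGT at bases 130 to 135, counted from 1 at the 5′ end. Of 32851 promoters of the same length, 4.60% held the NRF1 motif, 8.86% the ETS motif and 7.51% the CREB motif. The Slc25a5 window held TATAA at bases 277 to 281, which lie after the listed start, a motif found in 24.9% of promoters. The Slc25a47 window held CCAAT on the opposite strand at bases 131 to 135, before the listed start, and 259 to 263, after it. That motif was found in 37.4% of promoters. AAGGTCA, found in 4.72% of promoters, was in none of the 3 windows. GC content was 53.3%, 61.0% and 65.7% for Slc25a47, Slc25a5 and Slc25a3, against a median of 52.7% over all promoters. These matches describe letters only.

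Carrier RNA was concentrated in few genes and was more abundant in every knockout library than in either control library. The 40 carriers summed to 3060 and 3423 FPKM in knockouts on serine and 3651 and 3500 FPKM in knockouts on water, against 2436 and 2451 FPKM in controls. Slc25a47, Slc25a22, Slc25a5, Slc25a3 and Slc25a39 made up 81.2% to 84.9% of that sum in every library. Slc25a47 alone took 22.8% and 16.4% in knockouts on serine and 29.9% and 36.5% in knockouts on water, against 31.9% and 31.3% in controls. Without Slc25a47 the sum was 2362 and 2861 FPKM in knockouts on serine and 2560 and 2223 FPKM in knockouts on water, against 1660 and 1684 FPKM in controls. All 4 knockout libraries thus lay above both controls with and without the most abundant carrier. The sums were not tested, as the members were chosen together.

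**Figure D1:**
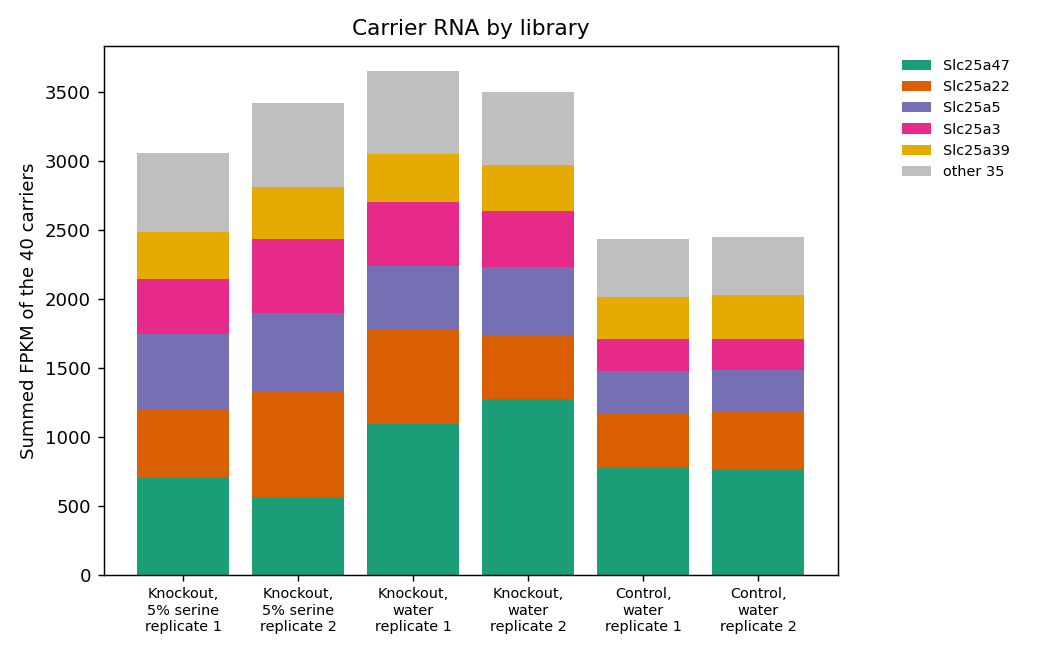
Stacked bars give the summed FPKM of the 40 carriers in each of the 6 libraries (y axis), split into the 5 most abundant carriers and the other 35. Bars of the 4 knockout libraries reach 3060 to 3651 FPKM and those of the 2 controls 2436 and 2451 FPKM, and the Slc25a47 segment is tallest in knockouts on water.

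Among carriers of closely related cargo, 1 gene usually held nearly all of the RNA. Slc25a5, the adenine nucleotide translocator known as ANT2, made up 99.3% to 99.7% of the RNA of its set, with the heart and muscle form Slc25a4 at 0.345% to 0.721% and the germ-cell form Slc25a31 at 0.0457% or less. Slc25a39, which imports glutathione, made up 99.2% to 99.7% of the pair it forms with Slc25a40. For the glutamate carriers, Slc25a22 stood at 387 to 768 FPKM across libraries and Slc25a18 at 0.25 FPKM or less. The mitoferrins, which bring iron to the matrix, were more even, with Slc25a28 at 76.0% to 85.5% and Slc25a37 the rest. Of the pyrimidine nucleotide carriers, Slc25a33 held 92.7% to 96.7% and Slc25a36 the rest. Among carriers that exchange ATP-magnesium for phosphate, Slc25a25 held 62.0% to 79.8%, Slc25a23 20.1% to 37.8%, and Slc25a24 at most 0.316%, while Slc25a41 was listed at 0 in all 6 libraries. Shares are of FPKM and so are per gene length.

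In the deposited coordinates (GRCm39) 4 pairs of members lay within 50000 bases of each other. Slc25a29 (chromosome 12, 108791799 to 108801809, minus strand) ends 162 bases before Slc25a47 (108801972 to 108822741, plus strand), so that they are transcribed away from each other. Slc25a29, a carrier of basic amino acids, ranged over 1.25 to 3.24 FPKM, and Slc25a47 over 562 to 1277 FPKM. In the RefSeq table (GRCm38.p6) the starts of this pair are 15253 bases apart, so the short distance rests on the deposited gene model. Slc25a43, an orphan carrier 18448 bases from Slc25a5 on the X chromosome, stood at 0.07 FPKM or less beside 305 to 568 FPKM for Slc25a5. Slc25a41, 2056 bases from Slc25a23 on chromosome 17, was listed at 0 beside 39.1 to 57.9 FPKM. Each of these 3 pairs joined a carrier at a low level to an abundant one. The last pair, Slc25a54 and Slc25a24 on chromosome 3, was low throughout, at 0 and at 0.23 to 0.51 FPKM.

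A test was run on 31 of the 40 carriers, those whose FPKM averaged 1 or more across all 6 libraries. The lowest tested were Slc25a27, a brain-type uncoupling protein, at a mean of 1.04 FPKM and Slc25a14, a related carrier, at 1.36 FPKM. The 9 not tested were Slc25a36 (mean 0.653 FPKM), Slc25a35 (0.575), Slc25a24 (0.393), Slc25a18 (0.107), Slc25a2 (0.0800), Slc25a31 (0.0683), Slc25a43 (0.0117), and Slc25a41 and Slc25a54, listed at 0. Slc25a18 lies across Atp6v1e1, which stood at 72.0 to 135 FPKM on the other strand, and the use of strand in counting is not given in the sources used here.

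**Figure D2:**
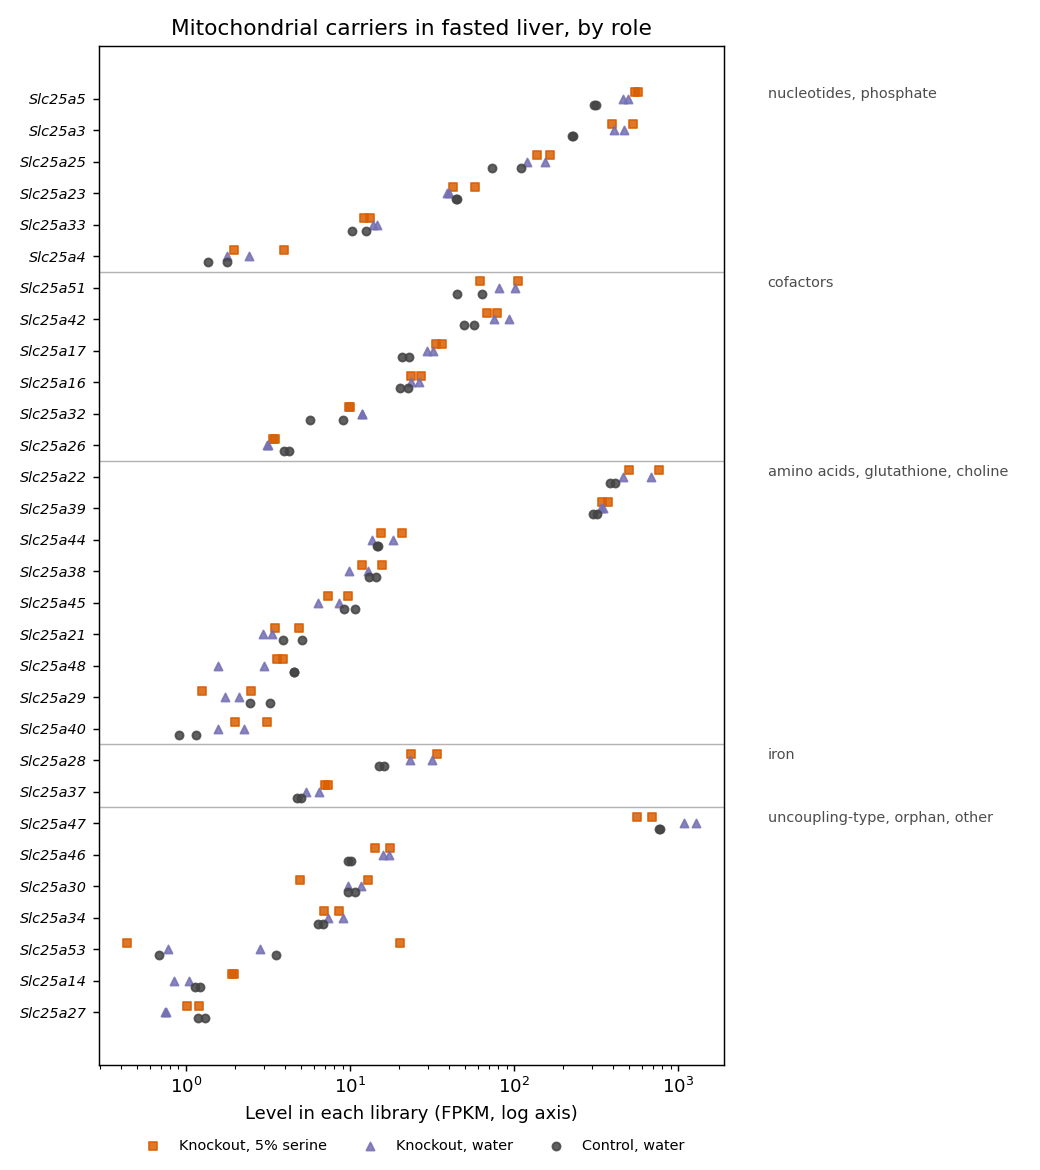
Each row is 1 of 30 tested carriers, in blocks by role, and each point is 1 library's level in FPKM on a log axis (orange squares, knockout on serine; purple triangles, knockout on water; dark grey circles, control). Levels run from 0.44 FPKM for Slc25a53 to 1277 FPKM for Slc25a47, and the 2 libraries of a group lie close for most carriers, with Slc25a53 the widest.

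Knockout on water against control on water asked how loss of hepatocyte Gapdh relates to carrier RNA. None of the 31 tested carriers passed at an adjusted p under 0.05 (limma, Benjamini-Hochberg over 11134 genes), where 1.21% of all genes did, 0.808% with higher values. The smallest adjusted p was 0.061, for Slc25a3. At an unadjusted p under 0.05 there were 11 carriers, or 35.5%, against 21.6% of all genes. Of these, 10 had higher values, against 14.0% of all genes, and 1 had lower values, against 7.63%. Both knockout libraries lay above both controls for 18 carriers, or 58.1%, against 34.4% of all genes, and below both for 9, against 20.9%. Differences are given on the log2(FPKM + 0.5) scale, which understates those of low genes. Their median was 0.24 for the carriers and 0.08 for all genes tested.

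Knockout on serine against control on water gave 1 carrier of 31 at an adjusted p under 0.05, Slc25a5, or 3.23%, where 1.18% of all genes passed, 0.853% with higher values. At an unadjusted p under 0.05 there were 11 carriers, all with higher values, or 35.5%, against 25.7% of all genes. Higher values at that threshold were found in 19.8% of all genes and lower values in 5.95%. Both libraries lay above both controls for 18 carriers, or 58.1%, against 41.5% of all genes. They lay below both for 3 carriers, against 15.5% of all genes. The median was 0.44 for carriers and 0.16 for all genes, so that the carriers' median stood 0.27 above that of all genes, which was 0 by construction with median-of-ratios scaling. Both comparisons share the control libraries, so their values are set side by side below and not counted as separate evidence.

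Serine against water in knockouts asked what serine in the drinking water relates to. No carrier passed, and of all genes 0% did (limma; 805 genes, or 7.23%, had an unadjusted p under 0.05). Of the 31 carriers 3 had an unadjusted p under 0.05, 2 with higher values (5.19% of all genes), Slc25a14 among them, and Slc25a47 with lower values (2.04% of all genes). Both serine libraries lay above both water libraries for 10 carriers, or 32.3%, against 26.9% of all genes, and below both for 3 carriers, against 10.9%. The median was 0.15 for the carriers and 0.08 for all genes.

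**Figure D3:**
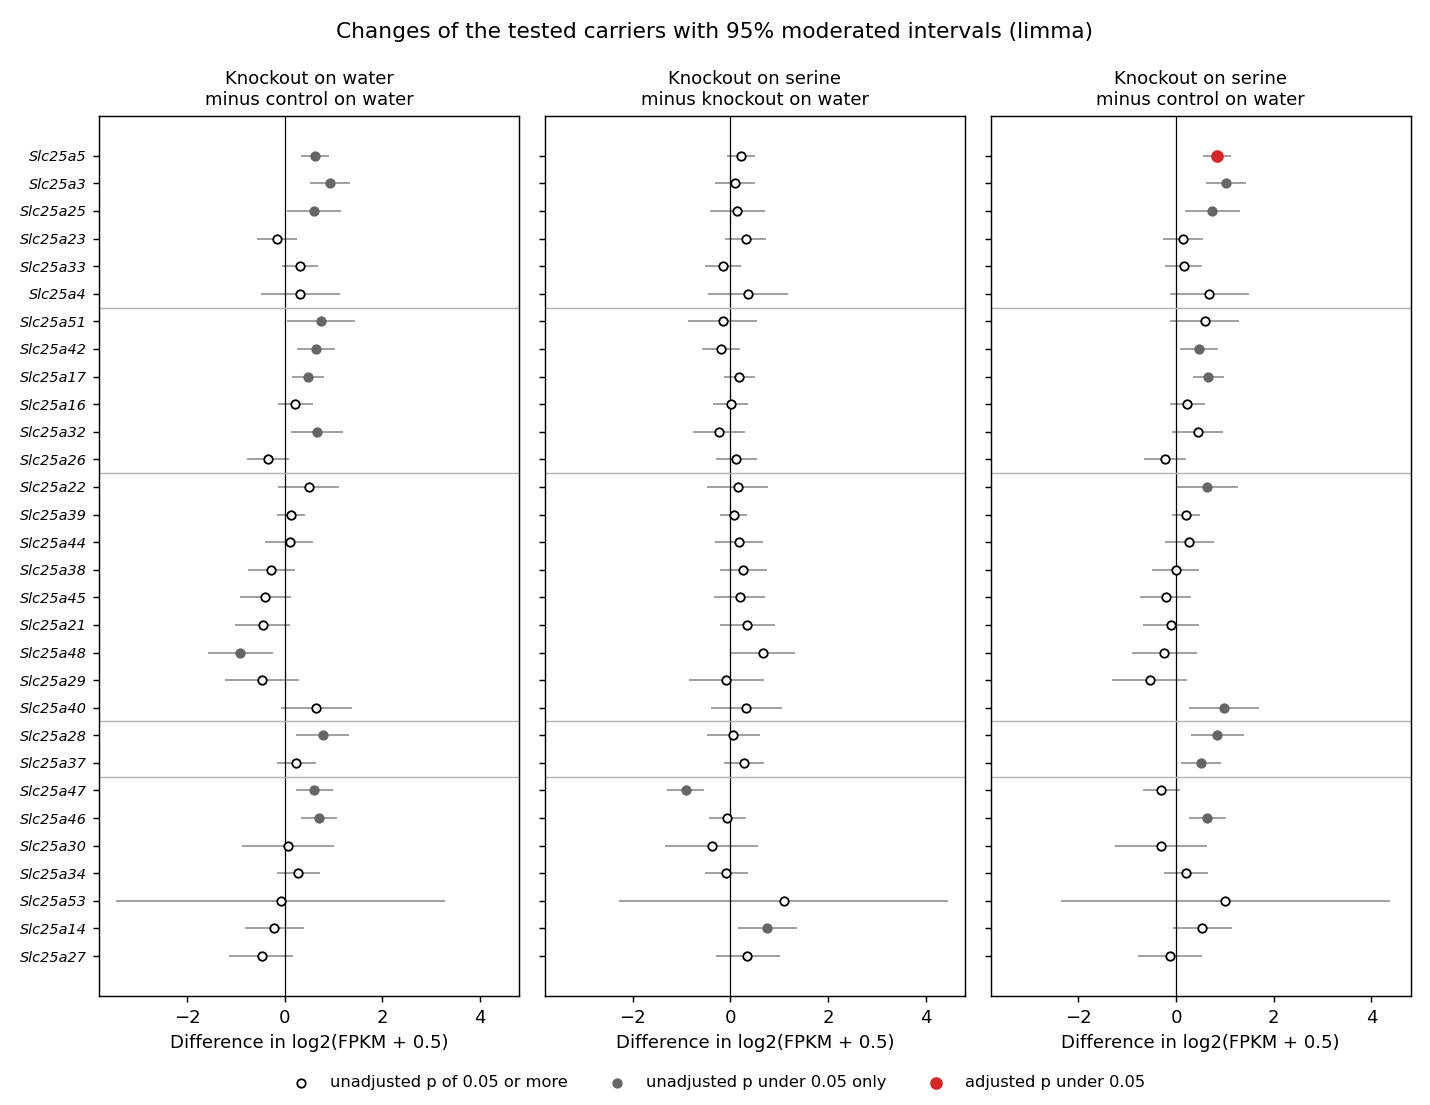
Points give the difference in log2(FPKM + 0.5) of 30 tested carriers in the 3 comparisons and lines its 95% moderated interval (limma); rows are ordered as in the plot of levels. The only red point, an adjusted p under 0.05, is Slc25a5 at 0.84 in knockout on serine minus control on water, and grey points have an unadjusted p under 0.05 only.

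Carriers of nucleotides and phosphate supply ATP synthesis, and the 3 most abundant of them stood higher in knockouts. Of 10 members 6 were tested. Of these, 1 rose in knockouts on serine, where 1.18% of all genes passed, 0.853% with higher values. In knockouts on water 0 passed, where 1.21% of all genes did. Slc25a5 (ENSMUSG00000016319, X chromosome, 36059304 to 36062460, plus strand, GRCm39) exchanges matrix ATP for cytosolic ADP. It measured 542 and 568 FPKM in knockouts on serine and 461 and 493 FPKM in knockouts on water, against 314 and 305 FPKM in controls. The 3 groups did not overlap, with knockouts on serine highest and controls lowest. Slc25a5 rose by 0.84 in knockouts on serine against controls (SE 0.12, 1.79-fold in mean FPKM, limma adjusted p = 0.0427).

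For knockouts on water the difference of Slc25a5 from controls was 0.62 (SE 0.12, 1.54-fold, limma adjusted p = 0.0635, and 0.0463 with TPM scaling). Serine against water in knockouts gave 0.22 (95% interval -0.06 to 0.50, limma adjusted p = 0.733). The call of Slc25a5 held in 2 of 13 alternatives, TPM scaling and a pseudocount of 1, with limma adjusted p from 0.0306 to 0.236 over the 13. Leaving out any 1 of the 6 libraries ended it. Of the 50-base stretches of its longest GENCODE transcript, 46.6% also occur in transcripts of 9 other genes, all processed pseudogenes of the deposited table, so its level is uncertain by what the authors' counting did with shared reads. Those 9 genes together stood at 5.04 and 4.34 FPKM in knockouts on serine and 3.58 and 5.53 FPKM in knockouts on water, against 3.39 and 4.90 FPKM in controls.

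Slc25a3 (ENSMUSG00000061904, chromosome 10, 90952436 to 90959921, minus strand) carries phosphate, and copper, into the matrix. It measured 398 and 533 FPKM in knockouts on serine and 466 and 404 FPKM in knockouts on water, against 230 and 224 FPKM in controls. Both knockout groups overlapped each other and lay above both controls. The difference from controls was 1.02 on serine (SE 0.17, 2.05-fold, limma adjusted p = 0.0506) and 0.93 on water (SE 0.17, 1.92-fold, limma adjusted p = 0.061). On water it passed with TPM scaling (adjusted p = 0.0463), with the compared libraries only (0.0423), and without knockout serine replicate 1 (0.0426) or 2 (0.0444). On serine it passed with TPM scaling (adjusted p = 0.0399) and without knockout serine replicate 1 (0.0421).

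Slc25a25, an ATP-magnesium and phosphate exchanger that responds to calcium, measured 165 and 137 FPKM in knockouts on serine and 155 and 121 FPKM in knockouts on water, against 73.4 and 111 FPKM in controls. All knockout libraries lay above both controls. Its difference was 0.74 on serine (limma adjusted p = 0.118) and 0.60 on water (limma adjusted p = 0.208). Without control replicate 1 the difference of Slc25a25 was 0.44 on serine and 0.30 on water, and without control replicate 2 it was 1.03 and 0.89. Slc25a23, its relative, measured 57.9 and 42.2 FPKM in knockouts on serine and 39.1 and 40.3 FPKM in knockouts on water, against 44.7 and 44.0 FPKM in controls. Its libraries on serine lay on either side of the controls, and Crb3 overlaps it on the other strand at 12.2 to 22.9 FPKM. The pyrimidine nucleotide carrier Slc25a33 stood between 10.3 and 14.5 FPKM and the muscle translocator gene Slc25a4 between 1.37 and 3.94 FPKM over all libraries.

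Of 7 cofactor carriers 6 had positive differences in each comparison with controls, where 59.0% of all genes did on water and 66.4% on serine. Of the 7, 0 passed in any comparison. As roles were drawn up with earlier results of these data known, counts by role are descriptive and not a test. Slc25a51 brings NAD into the matrix, where it serves the oxidation that cytosolic shuttles depend on. It measured 61.6 and 105 FPKM in knockouts on serine and 101 and 80.5 FPKM in knockouts on water, against 63.9 and 44.9 FPKM in controls. The water group lay above both controls and the serine group overlapped them. Its difference from controls was 0.59 on serine (95% interval -0.12 to 1.29, limma adjusted p = 0.264) and 0.74 on water (0.04 to 1.45, limma adjusted p = 0.211). The value on water was 0.49 without control replicate 2.

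Slc25a42, a carrier of coenzyme A, measured 68.2 and 78.8 FPKM in knockouts on serine and 93.0 and 75.1 FPKM in knockouts on water, against 57.0 and 49.6 FPKM in controls. All knockout libraries lay above both controls, by 0.46 on serine (limma adjusted p = 0.142) and 0.65 on water (limma adjusted p = 0.101). Slc25a17, a peroxisomal member of the family that carries coenzyme A and related cofactors, measured 36.6 and 33.5 FPKM in knockouts on serine and 29.6 and 32.0 FPKM in knockouts on water, against 23.0 and 20.9 FPKM in controls. Its groups did not overlap, with a difference of 0.66 on serine (limma adjusted p = 0.0601) and 0.48 on water (limma adjusted p = 0.119). With TPM scaling Slc25a17 passed on serine (adjusted p = 0.0492).

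Slc25a32, which carries folate and FAD, measured 9.90 and 9.99 FPKM in knockouts on serine and 11.8 and 11.8 FPKM in knockouts on water, against 9.05 and 5.74 FPKM in controls. Its difference was 0.67 on water (limma adjusted p = 0.155) and 0.44 on serine (limma adjusted p = 0.265). The value on water was 0.98 without control replicate 1 and 0.36 without control replicate 2. Slc25a16, linked to coenzyme A supply, stood between 20.2 and 27.1 FPKM in all libraries. Slc25a26, the importer of S-adenosylmethionine, was the 1 cofactor carrier with negative differences, at 3.49 and 3.40 FPKM in knockouts on serine and 3.10 and 3.16 FPKM in knockouts on water, against 3.98 and 4.25 FPKM in controls. Its groups did not overlap, and its limma adjusted p was 0.454 on serine and 0.313 on water. Lrig1 overlaps it on the other strand at 4.12 to 6.84 FPKM, so reads of the 2 genes may not have been told apart.

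Carriers of amino acids, glutathione and choline were divided, with positive differences for 4 of 9 tested and negative ones for 5 in each comparison with controls, and 0 passing. Slc25a22, a glutamate carrier, measured 504 and 768 FPKM in knockouts on serine and 686 and 460 FPKM in knockouts on water, against 387 and 412 FPKM in controls. All knockout libraries lay above both controls, and the higher library of each knockout group was one of the pair with a low mitochondrial share. Its difference was 0.64 on serine (95% interval 0.02 to 1.26, limma adjusted p = 0.187) and 0.49 on water (-0.13 to 1.12, limma adjusted p = 0.328). The value on serine was 0.94 without knockout serine replicate 1 and 0.33 without replicate 2. Slc25a39 measured 342 and 375 FPKM in knockouts on serine and 347 and 337 FPKM in knockouts on water, against 304 and 322 FPKM in controls, with intervals of -0.09 to 0.48 on serine and -0.16 to 0.41 on water.

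Its low relative Slc25a40 measured 2.00 and 3.13 FPKM in knockouts on serine and 2.27 and 1.57 FPKM in knockouts on water, against 0.91 and 1.15 FPKM in controls. All knockout libraries lay above both controls, by 0.98 on serine (SE 0.30, limma adjusted p = 0.111) and 0.65 on water (SE 0.30, limma adjusted p = 0.269). Slc25a48, a mitochondrial choline carrier, measured 3.60 and 3.92 FPKM in knockouts on serine and 1.57 and 3 FPKM in knockouts on water, against 4.53 and 4.56 FPKM in controls. Its groups did not overlap, with controls highest and knockouts on water lowest. The difference from controls was -0.91 on water (SE 0.28, limma adjusted p = 0.137) and -0.25 on serine (limma adjusted p = 0.609), and serine against water gave 0.66 (SE 0.28, limma adjusted p = 0.683). The value of Slc25a48 on water was -0.53 without knockout water replicate 1, a library with a low mitochondrial share, and -1.29 without replicate 2.

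Slc25a38, which brings glycine into mitochondria for heme synthesis, measured 11.8 and 15.6 FPKM in knockouts on serine and 9.84 and 12.9 FPKM in knockouts on water, against 13.1 and 14.4 FPKM in controls. The serine group overlapped both others, and serine against water gave 0.26 (95% interval -0.22 to 0.75). Slc25a44, a carrier of branched-chain amino acids, measured 15.5 and 20.7 FPKM in knockouts on serine and 18.4 and 13.6 FPKM in knockouts on water, against 14.9 and 14.7 FPKM in controls. Knockout libraries on water lay on either side of the controls. Slc25a45 ranged over 6.36 to 10.7 FPKM, the oxodicarboxylate carrier Slc25a21 over 2.94 to 5.11 FPKM, and Slc25a29 over 1.25 to 3.24 FPKM. For each of these 3 genes both knockout libraries on water lay below both controls, with an adjusted p between 0.328 and 0.438 (limma).

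Both iron carriers stood higher in all knockout libraries than in either control, and 0 of 2 passed. Of all genes, 34.4% lay above both controls in both libraries on water and 41.5% on serine. Slc25a28, mitoferrin 2, measured 23.7 and 33.7 FPKM in knockouts on serine and 31.6 and 23.1 FPKM in knockouts on water, against 16.01 and 15.03 FPKM in controls. Its difference was 0.84 on serine (SE 0.22, limma adjusted p = 0.0898) and 0.78 on water (SE 0.22, limma adjusted p = 0.125). Slc25a37, mitoferrin 1, known from developing red cells, measured 7.38 and 7.04 FPKM in knockouts on serine and 5.36 and 6.45 FPKM in knockouts on water, against 5.06 and 4.74 FPKM in controls. Its 3 groups did not overlap, and the difference from controls was 0.51 on serine (limma adjusted p = 0.126) and 0.24 on water (limma adjusted p = 0.446). The 7 red cell markers summed to 1421 and 1362 FPKM in knockouts on serine and 736 and 1605 FPKM in knockouts on water, against 1166 and 1094 FPKM in controls. Globin genes made up most of that sum, above both controls on serine and overlapping them on water. Alas2 of the same list went the other way, at 25.8 and 24.6 FPKM on serine and 19.8 and 18.5 FPKM on water, against 29.3 and 29.2 FPKM in controls. The part of red cells in the Slc25a37 values was not tested. In bulk tissue, fewer cells of a type and less RNA per cell cannot be told apart.

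The remaining carriers have uncoupling-type, structural or unsettled roles. Slc25a47 (ENSMUSG00000048856), a carrier known for its restriction to hepatocytes, was the 114th most abundant of all annotated genes. It measured 698 and 562 FPKM in knockouts on serine and 1091 and 1277 FPKM in knockouts on water, against 776 and 766 FPKM in controls. Knockouts on water were highest and knockouts on serine lowest, with no overlap among the 3 groups. Its difference was -0.91 for serine against water in knockouts (SE 0.16, 0.532-fold in mean FPKM, unadjusted p = 0.000843 and adjusted p = 0.620 in limma). It was 0.61 for knockouts on water against controls (SE 0.16, limma adjusted p = 0.104) and -0.30 for knockouts on serine against controls (95% interval -0.67 to 0.08, limma adjusted p = 0.280). Without knockout serine replicate 2 the last value was -0.14. The first and second of these values share the knockout libraries on water. Over 13 alternatives the serine value of Slc25a47 ranged from -1.07 to -0.76, with limma adjusted p from 0.364 to 0.832.

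Slc25a46, an outer-membrane member of the family that acts in mitochondrial shape, measured 14.2 and 17.5 FPKM in knockouts on serine and 17.2 and 15.9 FPKM in knockouts on water, against 10.1 and 9.77 FPKM in controls. All knockout libraries lay above both controls, by 0.64 on serine (limma adjusted p = 0.0772) and 0.71 on water (limma adjusted p = 0.0805). Of its 50-base stretches 7.52% are shared with B930094E09Rik, an overlapping gene on the other strand at 0.33 to 1.24 FPKM. Slc25a14 measured 1.90 and 1.97 FPKM in knockouts on serine and 0.85 and 1.05 FPKM in knockouts on water, against 1.14 and 1.22 FPKM in controls. The serine libraries were highest, 0.75 above knockouts on water (SE 0.25, limma adjusted p = 0.675).

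Slc25a30, a relative of the uncoupling proteins, measured 13.0 and 4.98 FPKM in knockouts on serine and 9.75 and 11.7 FPKM in knockouts on water, against 10.7 and 9.69 FPKM in controls, so the serine libraries lay on either side of all others. Slc25a53, an orphan carrier, measured 0.44 and 20.1 FPKM in knockouts on serine and 0.78 and 2.82 FPKM in knockouts on water, against 3.54 and 0.68 FPKM in controls. Its highest value came from knockout serine replicate 2 alone, and the groups overlapped in every comparison. The orphan carrier Slc25a34 stood between 6.39 and 9.08 FPKM. Slc25a27 stood at 1.01 and 1.20 FPKM in knockouts on serine and 0.75 and 0.76 FPKM in knockouts on water, against 1.31 and 1.18 FPKM in controls.

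**Figure D4:**
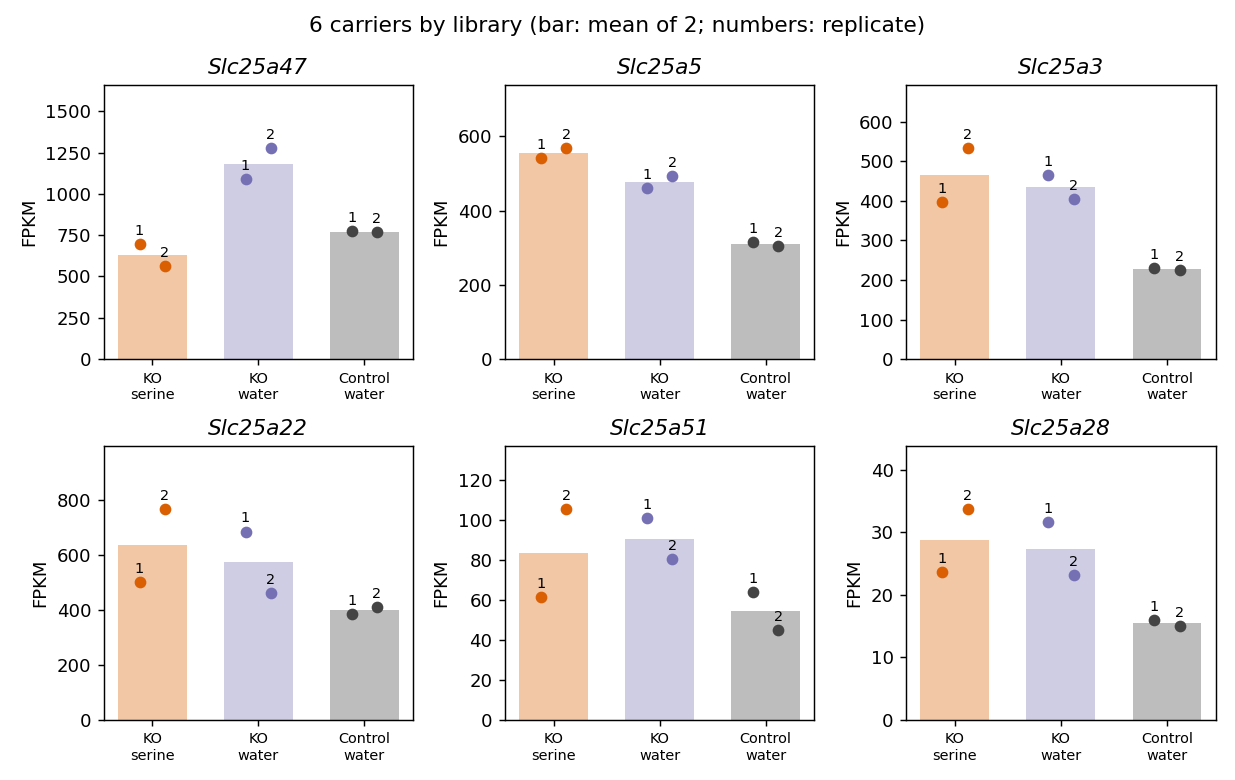
Points are the 2 libraries of each group, numbered by replicate, and bars their mean in FPKM, on axes from 0, for 6 abundant or separated carriers. Slc25a47 is highest in knockouts on water, Slc25a5, Slc25a3 and Slc25a28 are higher in all 4 knockout libraries than in both controls, and the higher knockout points of Slc25a3, Slc25a22, Slc25a51 and Slc25a28 are serine replicate 2 and water replicate 1.

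Serine replicate 2 and water replicate 1 were the higher libraries of their groups for 11 of the 31 tested carriers, or 35.5%, against 27.4% of all genes tested. Slc25a3, Slc25a22, Slc25a39, Slc25a51, Slc25a42, Slc25a28, Slc25a46, Slc25a44, Slc25a34 and Slc25a40 were among them. The same pair were the lower libraries for 9 carriers, or 29.0%, against 29.8% of all genes, with Slc25a47, Slc25a23, Slc25a17 and Slc25a37 among these. They are the 2 libraries with the lowest share of mitochondrially encoded RNA, and the part of that difference in the carrier values was not tested. Without that pair, 0 carriers and 0 of all genes passed in each comparison, with 1 library left in each knockout group. The 3 groups did not overlap for 8 carriers, or 25.8%, against 15.3% of all genes tested: Slc25a5, Slc25a47, Slc25a17, Slc25a32, Slc25a37, Slc25a26, Slc25a48 and Slc25a14.

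Relatives of the carriers with other symbols included 1 call of 3 tested genes on water, where 1.21% of all genes passed. Ucp2, an uncoupling-protein relative that moves small carbon acids across the inner membrane, measured 18.0 and 18.7 FPKM in knockouts on serine and 19.2 and 20.7 FPKM in knockouts on water, against 10.8 and 10.6 FPKM in controls. All knockout libraries lay above both controls. Ucp2 rose by 0.87 in knockouts on water (SE 0.13, limma adjusted p = 0.0432), and differed by 0.75 in knockouts on serine (SE 0.13, limma adjusted p = 0.053). The call on water was lost in 11 of 13 alternatives, with limma adjusted p from 0.0373 to 0.240. Of the other 4, Ucp1 was listed at 0, Ucp3 stood at 0.24 FPKM or less, and Mtch1 and Mtch2, which act at the outer membrane, did not pass.

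Of 16 genes of the import route for carriers, 0 passed in any comparison, with a median difference of 0.22 on water and 0.34 on serine against controls, where all genes stood at 0.08 and 0.16. Timm8a1, a small chaperone of the space between the membranes, measured 33.2 and 37.9 FPKM in knockouts on serine and 29.7 and 30.1 FPKM in knockouts on water, against 18.9 and 20.9 FPKM in controls. Tomm20, a receptor of the outer membrane, measured 26.3 and 27.5 FPKM in knockouts on serine and 25.1 and 25.6 FPKM in knockouts on water, against 16.7 and 14.1 FPKM in controls. Tomm5, a small subunit of the TOM complex, measured 70.3 and 111 FPKM in knockouts on serine and 75.0 and 60.8 FPKM in knockouts on water, against 25.0 and 37.2 FPKM in controls. These 3 genes were named for having the smallest p of the 16, with limma adjusted p of 0.0506, 0.0530 and 0.0547 on serine. All their knockout libraries lay above both controls, which is partly due to that choice. Of the 16 genes, both knockout libraries lay above both controls for 8 on water, or 50%, against 34.4% of all genes. On serine this held for 10, or 62.5%, against 41.5% of all genes.

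Of 20 other transporters and channels of mitochondrial membranes, 17 were tested and 0 passed in any comparison. Their median difference from controls was 0.06 on water and 0.22 on serine, where all genes stood at 0.08 and 0.16. On water 10 of the 17, or 58.8%, had positive differences, against 59.0% of all genes. The porins of the outer membrane, through which metabolites reach the carriers, were the 3 with the smallest p. Vdac2 measured 85.3 and 110 FPKM in knockouts on serine and 88.7 and 84.3 FPKM in knockouts on water, against 53.2 and 48.5 FPKM in controls (limma adjusted p = 0.0506 on serine and 0.0736 on water). Vdac1 and Vdac3 differed from controls by 0.59 and 0.56 on serine and by 0.42 and 0.43 on water, with limma adjusted p from 0.0601 to 0.130. Sfxn2 and Slc8b1 of the same list went the other way, each at -0.46 on water (limma adjusted p = 0.142 and 0.165). On serine they stood at -0.28 and -0.42. Sfxn1, an importer of serine into mitochondria, was chosen for that role after its values were seen. It measured 36.5 and 31.6 FPKM in knockouts on serine and 39.5 and 44.2 FPKM in knockouts on water, against 48.1 and 43.3 FPKM in controls. Its serine libraries were the lowest, with a difference of -0.30 from knockouts on water (95% interval -0.64 to 0.05, limma adjusted p = 0.722) and -0.42 from controls (limma adjusted p = 0.134). Of the 7 carriers left out by the rule, 1 passed in each comparison with controls, where 1.21% of all genes passed on water and 1.18% on serine. Of the 31 described here 0 passed on water and 1 on serine, and this difference was not tested.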

How the data were processed

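Liver RNA was sequenced in 6 libraries of 3 groups, assigned from the sample titles. The authors deposited FPKM values per gene, used as given; per the submitters' processing notes, bcl2fastq, HISAT2 2.0.5 and GRCm39 were used, and the sources used here do not give the FPKM tool, annotation release or strand setting. The 295 unannotated transcripts were left out. Genes with a mean of 1 FPKM or more (11134) were fitted as log2(FPKM + 0.5) with 3 group means over all 6 libraries in limma 3.58.1 under R 4.3.3 (eBayes with trend, 3 residual and 3.46 prior degrees of freedom), two-sided, with Benjamini-Hochberg adjustment over all genes and a threshold of 0.05. SD is over the 2 libraries of a group and SE and 95% intervals are moderated. The fit was tested on simulated data with independent noise and with changes larger than any carrier difference here. That test does not cover differences of the size reported. No count model was fitted because the tables hold FPKM. Implied fragments came from single-exon genes, of which 84.9% to 89.6% gave whole multiples (tolerance 0.03, with 17.3% to 18.9% by chance). The depth and a length offset were searched for the largest excess over chance, so that excess is partly due to the search. This depth limits values near 0. Shared sequence was the share of distinct 50-base stretches of a gene's longest GENCODE vM21 transcript found in transcripts of other genes. Alternatives were median-of-ratios and TPM scaling, pseudocount 1, no filter, no variance trend, a replicate block, the compared libraries only and each library left out. Members, roles and lists were chosen with earlier results of these data known. 1 member is counted but not reported here by name, and every other member is named; values in every library are given for called members and, per role, the 3 most abundant and the 3 with the smallest p, and for some others.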

Additional observations from a re-analysis of the deposited data

How the results depend on the processing

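Of 403 recomputed differences of single genes (31 over 13 alternatives), 369 kept their direction and side of the threshold. The 31 were carriers with an unadjusted p under 0.05 in the main fit (limma), with Slc25a47, Slc25a5, Slc25a3 and Ucp2 in every comparison. Most were thus chosen for a clear direction and were not called, so the 369 is no measure of how firm the calls are. The calls of Slc25a5 on serine and Ucp2 on water were each lost in 11 of 13 alternatives. Serine against water for Slc25a3, 0.09, changed sign with median-of-ratios scaling (-0.0022), without knockout serine replicate 2 (-0.12, against 0.30 without replicate 1), without knockout water replicate 2 (-0.02) and without the pair of libraries with a low mitochondrial share (-0.02), an alternative chosen after seeing the data. The cause was not tested. Carriers called on water numbered 0, but 2 with TPM scaling and 1 with the compared libraries only, and 0 to 1 with a library left out. On serine against controls they numbered 1, but 3 with TPM scaling and 0 with median-of-ratios scaling, no filter, no variance trend, the replicate block or the compared libraries only; with a library left out they numbered 0 to 1, and 0 without the pair. Of all genes on water, 135 passed (90 higher, 45 lower), 108 with median-of-ratios scaling (60 higher, 48 lower), 224 with TPM scaling (170 higher, 54 lower), 2 with no filter, 16 with no variance trend, 4 with the replicate block, 210 with the compared libraries only, 5 to 218 with a library left out and 0 without the pair. On serine against controls 131 passed (95 higher, 36 lower), 35 with median-of-ratios scaling (15 higher, 20 lower), 385 with TPM scaling (327 higher, 58 lower), 3 with no filter, 8 with no variance trend, 4 with the replicate block or the compared libraries only, 4 to 239 with a library left out and 0 without the pair. For serine against water 0 carriers passed in any alternative, and of all genes 0 to 3 with a library left out. Median-of-ratios scaling set the median gene to 0 from 0.16 on serine against controls, and 20 of 31 carriers were then positive there, in place of 22, and 20 in place of 21 on water. Replicate numbers did not pair the samples (correlations of replicate differences 0.03, -0.20 and 0.04), so a call lost with the replicate block is not read as a weaker effect; with the numbers crossed between the knockout groups 0 genes passed for serine against water. Where 1 library of a group is left, it is assumed to vary like the others. With 2 pools a group the SE was widest for Slc25a53 (1.40 at a mean of 4.73 FPKM) and Slc25a30 (0.39 at 9.96 FPKM), and depth limits values near 0.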
